A study of Homo sapiens with 42 samples.

Results

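Oncostatin M (OSM) was compared with its vehicle, PBS, at 24H in the chromatin accessibility data of MCF10A, an established non-tumorigenic human mammary epithelial cell line. The comparison used the 3 libraries labelled OSM (10 ng/ml) and the 3 labelled PBS (0 ng/ml), replicates A to C of one collection, out of 42 libraries in 13 groups, and every merged peak site of these 6 libraries on the autosomes and chromosome X was a member. All cells had been seeded on collagen-1 (75000 cells per plate) and held for 18 h before treatment in DMEM/F12 that held horse serum at 5%, cholera toxin at 100 ng/ml and hydrocortisone at 0.5 µg/ml, without the EGF and insulin of the growth medium, and each library came from 50000 cells. Neither arm received EGF. The other groups used below were CTRL (0H, before treatment), PBS and OSM at 48H, EGF, HGF, and IFNG and TGFB, which the labels give together with EGF. The study describes its replicates as biological, but the labels tie no letter to a culture or a day. The p-values therefore cover the spread between libraries of 1 cell line, and for detection that spread came from all 42 libraries.

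OSM is a cytokine of the interleukin-6 family. It binds the receptor chains OSMR and IL6ST (gp130), whose associated JAK kinases phosphorylate STAT3 and also feed the ERK pathway. STAT dimers bind a palindromic DNA element, and AP-1, RUNX and TEAD proteins are known to occupy many distal enhancers of mammary epithelial cells. ATACseq cuts accessible DNA with a transposase, so a peak marks DNA that the enzyme could reach, and it does not identify the protein bound there.

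The sequences below are shown because they carry DNA words whose shares are compared between site groups in the later paragraphs. Each is the hg38 reference, plus strand, 121 bases centred on the summit (the point of highest signal). The first 3 came from sites with a peak in all 3 OSM libraries, none of the 3 PBS libraries and none of the 4 CTRL libraries, and capitals mark the STAT word, TTCNNNGAA. They were among the taller intronic and intergenic sites of that kind with the word in the window. The KCNH7 window shared 91 of 121 bases (75.2%) with that of another such site, near PIK3C3, which held the same word TTCTCAGAA. These sites are therefore not independent examples. The LPCAT1 site had a peak in all 3 OSM, no PBS and all 4 CTRL libraries, and its capitals mark an AP-1 word (TGANTCA) and a RUNX word (TGTGGTT). The NFE2L1 site had a peak in all 3 PBS, no OSM and all 4 CTRL libraries, and its capitals mark a FOX word (TGTTTAC).
SIM1, chr6:100231062-100231182: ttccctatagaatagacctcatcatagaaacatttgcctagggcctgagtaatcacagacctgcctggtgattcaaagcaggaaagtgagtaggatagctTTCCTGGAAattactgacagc
SELPLG, chr12:108628533-108628653: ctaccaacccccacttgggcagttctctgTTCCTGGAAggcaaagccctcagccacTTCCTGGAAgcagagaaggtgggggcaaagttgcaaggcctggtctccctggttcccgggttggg
KCNH7, chr2:162928444-162928564: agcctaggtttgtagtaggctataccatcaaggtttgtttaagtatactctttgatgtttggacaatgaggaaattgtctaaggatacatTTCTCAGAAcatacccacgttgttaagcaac
LPCAT1, chr5:1608389-1608509: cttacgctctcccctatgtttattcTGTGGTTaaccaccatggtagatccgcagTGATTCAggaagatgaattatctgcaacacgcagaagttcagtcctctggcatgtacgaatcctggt
NFE2L1, chr17:48051795-48051915: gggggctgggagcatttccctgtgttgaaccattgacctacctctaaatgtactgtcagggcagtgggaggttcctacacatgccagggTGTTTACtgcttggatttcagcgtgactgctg
The SELPLG window, in an intron of the gene for the P-selectin ligand, held the STAT word 2 times. Gene names here are those of the nearest protein-coding transcription start, which was 233 kb away at SIM1, 3.49 kb at SELPLG and 89.7 kb at KCNH7, and nearness does not assign a site to a gene.

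The 6 libraries differed more by replicate letter than by treatment. Replicate A listed 107141 peaks with OSM and 102160 with PBS, replicate B listed 50094 and 43898, and replicate C listed 41799 and 37686. The mean was 66345 ± 35573 (SD, n = 3) with OSM and 61248 ± 35567 (SD, n = 3) with PBS, and the ratio of geometric means was 1.10 (exact permutation test, two-sided, p = 0.7). With 3 libraries against 3, an exact permutation test cannot go below p = 0.1. The share of peaks within 1000 bp of a protein-coding transcription start was 20.8%, 27.05% and 28.5% in OSM replicates A, B and C and 20.9%, 29.8% and 35.1% in PBS (difference -3.15 percentage points, exact permutation p = 0.4). The median summit carried 24, 18 and 15 fragments with OSM and 23, 17 and 16 with PBS, and the smallest listed summit 6 or 7, so a site without a listed peak may hold fragments below that threshold. Read totals are not part of the peak lists. A peak lay within 1000 bp of a transcription start in all 6 libraries for 8 of 12 basal mammary markers, 3 of 9 luminal markers and 1 of 12 leukocyte, endothelial and fibroblast markers (the exception was CD14), and TP63, a defining basal gene, had none in any library.

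Merging gave 110894 sites, of which 73239 had a peak in at least 2 of the 6 libraries and were kept, and 19612 had one in all 6. Because a library with more peaks finds more sites, the detection of a site (1 or 0) was reduced by the expected detection, the share of sites found in that library among all sites found in the same number of the 42 libraries. limma on this adjusted detection, with the spread taken from all 13 groups, called 11 gained sites (0.015% of the sites tested) and 31 lost sites (0.0423%). The thresholds were 0.01 for the adjusted p and 0.5 for the size of the difference, and 12142 sites had p below 0.05 before adjustment.

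The called sites were mostly small. Each of the 11 gained sites had a peak in all 3 OSM and no PBS library, and 10 of them were found in at most 4 of the 42 libraries. Of the 31 lost sites, 21 were found in 2 PBS libraries and in no other library of the series. This rarity follows in part from the fit, because groups without a peak at a site add little spread there and lower its p. It also follows from the choice of sites, since a site found in only 2 libraries was kept only if both were among the 6. The called sites thus passed this filter through the group that had the peaks. With a peak required in at least 1 of the 6 libraries, 5 of the 31 lost and all 11 gained sites were still called. The mean pileup in the OSM libraries was 9.67 to 38.3 fragments at the gained sites, and in the PBS libraries it was 6.5 to 64.0 fragments at the lost sites. None of the 42 lay within 1000 bp of a transcription start, and none within 50 kb of a transcription start of any gene on the lists described below.

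Among the gained sites, 1 had a peak in all 3 OSM libraries at 48H, and 7 had one in OSM replicate A at 48H. The first was an intergenic site with PIK3C3 as its nearest gene, 1787 kb away. The PIK3C3 site held 40, 21 and 13 fragments in OSM replicates A, B and C at 24H and 32, 9 and 20 at 48H, and no other library of the series had a peak there. Its adjusted detection was higher by 0.90 at 24H (limma, adjusted p = 0.00287). The remaining 10 were nearest to PSMD6, ADAM19, TSPYL5, LYRM2, TNS1, RPLP1, SCYGR5, CCN4, PLS3 and LRATD2. CCN4, a secreted matricellular protein gene, had the tallest of them, with 70, 25 and 20 fragments in an intron and 37 in OSM replicate A at 48H. The site near PSMD6, a proteasome subunit gene, that in ADAM19, a membrane protease gene, and that near LRATD2 were found in no library beyond the 3 of OSM at 24H. The next site in order of p, intergenic near FAM181A, did not pass (limma, adjusted p = 0.0118).

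The 12 lost sites named by rank included ties in p, and 6 of them had a peak in all 3 PBS libraries, and ALG10B, SRGAP2C, CACNG5, UBE2V1 and KAT6A were the nearest genes of 5 of these. The lowest p belonged to chr12:38390980-38391337, intergenic near ALG10B, with 29, 9 and 11 fragments in PBS replicates A, B and C and no peak in the other 39 libraries (limma, adjusted p = 1.1e-05). The SRGAP2C site, 2487 kb from the start of that gene, held 6, 8 and 7 fragments, where the smallest listed in these libraries were 6, 7 and 7. The other 6, near THBS2, TTC27, KCNMA1, UGT1A6, THSD7B and FAM170A, had a peak in replicates A and B of PBS only. The tallest of the 31 lost sites, in an intron of BMF, a pro-apoptotic BH3-only gene, held 121, 43 and 28 fragments with PBS (limma, adjusted p = 0.0069). These calls depended on the libraries in the fit: with the 6 libraries alone, or with the 24H groups and CTRL, limma called 0 gained and 0 lost sites (7247 sites had an unadjusted p below 0.05 in the 6 libraries alone). Without OSM replicate A it called 483 and 720, without PBS replicate A 234 and 476, without OSM replicate C 46 and 41, without PBS replicate B 11 and 11, and without PBS replicate C 17 and 25.

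A broader set was defined by detection alone. A peak was present in all 3 OSM and none of the 3 PBS libraries at 1114 sites (1.52% of the kept sites), called OSM-side sites here, and the reverse held at 289 sites (0.395%), called PBS-side sites. These counts are a description, because the detection values chose the sites, and they are not adjusted for peak number. With equal numbers of the strongest peaks per library they were 2095 and 1563. By this rule PBS replicate A, with 102160 peaks, had no peak at any OSM-side site, where 88.7% was the expected detection. OSM replicate A likewise had none at any PBS-side site, where 93.8% was expected. Both absences were fixed by the choice of sites. Without PBS replicate A the OSM-side count was 4826, and without OSM replicate A the PBS-side count was 2421. Without OSM replicate B or C the OSM-side count was 1948 or 3056, and without PBS replicate B or C the PBS-side count was 702 or 1239.

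Both sets lay away from promoters. Within 1000 bp of a transcription start were 2.15% of OSM-side and 3.46% of PBS-side sites, against 17.6% of all kept sites and 38.5% of the sites found in all 6 libraries. Intergenic DNA held 59.96% of OSM-side and 50.2% of PBS-side sites, and introns 38.2% and 46.4%, against 48.9% and 43.2% of all kept sites. The median distance to the nearest start was 53.5 kb for OSM-side sites, 38.6 kb for PBS-side sites and 29.1 kb for all kept sites. The median pileup at OSM-side sites was 29 fragments in OSM replicate A, 16 in B and 13 in C, and at PBS-side sites 33, 14 and 12 in the PBS replicates, so most were of moderate height.

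The 48H libraries took no part in choosing these sites. OSM replicates A, B and C at 48H had a peak at 74.3%, 4.49% and 32.3% of the OSM-side sites, where 60.7%, 2.34% and 12.6% were expected from each library's peak list. PBS replicates A, B and C at 48H had a peak at 3.95%, 4.31% and 1.17%, where 28.6%, 27.8% and 2.77% were expected. All 3 OSM libraries lay above expectation and all 3 PBS libraries below it, a mean difference of 28.4 percentage points after subtracting the expectation (exact permutation test, two-sided, p = 0.1, the smallest it can give). Site by site, 822 of the 1114 were found in more OSM than PBS libraries at 48H, 18 in fewer and 274 in equal numbers, 230 of these in none. Of all 73239 kept sites, 20638 were found in more and 19438 in fewer.

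The PBS-side sites showed the opposite pattern. PBS replicates A, B and C at 48H had a peak at 74.0%, 78.2% and 12.8% of them, where 28.2%, 27.4% and 2.58% were expected. OSM replicates A, B and C at 48H had a peak at 39.8%, 1.04% and 2.08%, where 62.2%, 2.24% and 11.3% were expected. The adjusted difference was -46.6 percentage points (exact permutation p = 0.1), and without the adjustment the difference was -40.7 with overlapping groups (exact permutation p = 0.2). Site by site, 229 of 289 were found in more PBS than OSM libraries at 48H and 10 in fewer. In limma, 0 sites had a 48H difference that departed from the 24H difference at adjusted p below 0.01, and 6050 did at an unadjusted p below 0.05.

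**Figure D1:**
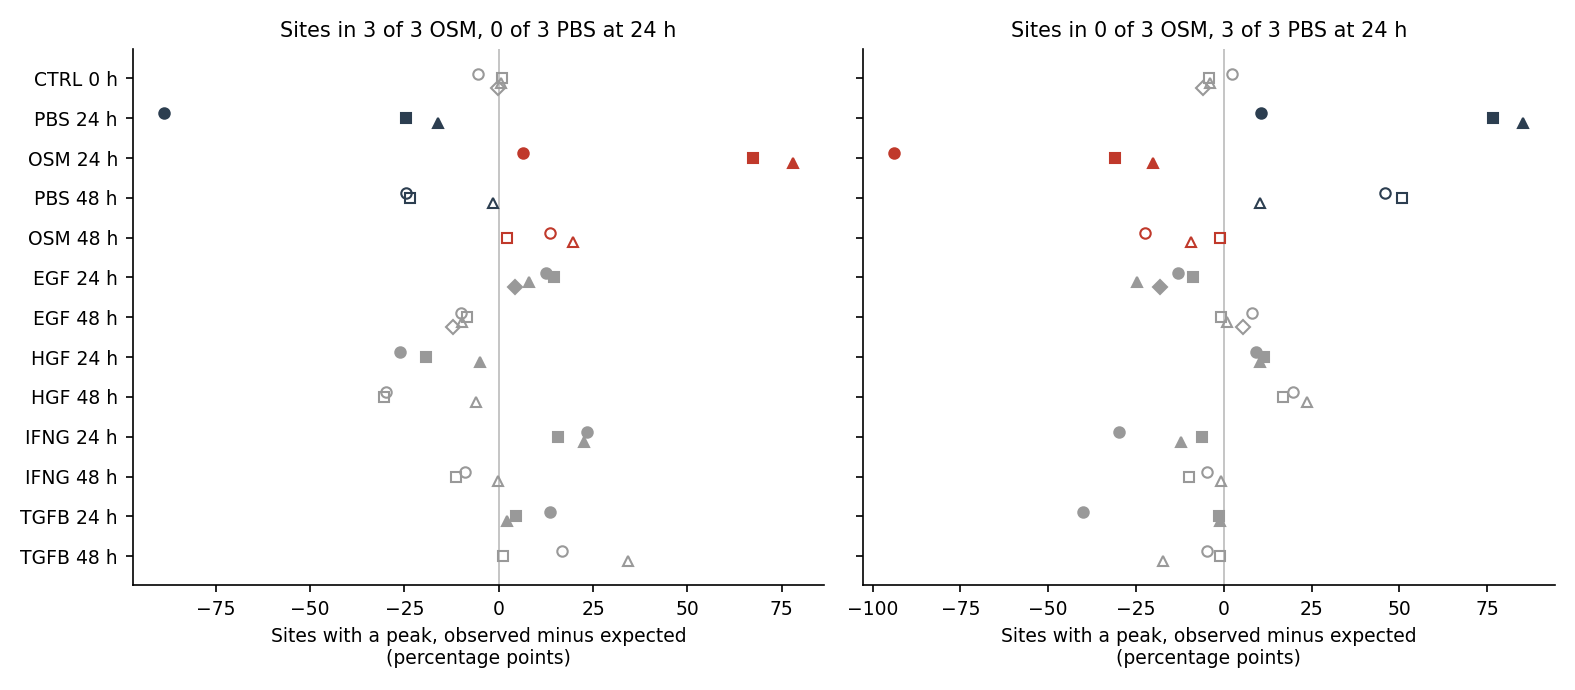
Share of the 1114 OSM-side sites (left) and 289 PBS-side sites (right) with a peak in each of the 42 libraries, minus the share expected from the library's peak list, in percentage points; circles, squares, triangles and diamonds are replicates A, B, C and D, filled at 24H and open at 0H and 48H, with OSM red, PBS dark and other groups grey. The 24H OSM and PBS libraries chose the sites; at 48H the OSM libraries lie from 2.15 to 19.8 (left) and from -22.4 to -1.20 (right), and the PBS libraries from -24.6 to -1.60 and from 10.2 to 50.8.

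The untreated starting cells were compared next. Of the 1114 OSM-side sites, 795 (71.4%) had a peak in all 4 CTRL libraries, 263 in some and 56 (5.03%) in none. Most OSM-side sites were therefore listed at 0H and again with OSM at 24H but not with PBS at 24H. The PBS-side sites divided alike, with 210 of 289 (72.7%) in all 4 CTRL libraries and 9 (3.11%) in none. Among all kept sites 80.9% were in all 4 and 2.66% in none.

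The other ligands, each against its own expected share, differed at these sites. OSM-side sites were found above expectation in the 24H libraries of EGF (62.1% observed, 52.2% expected, means of 4 libraries) and of IFNG with EGF (46.1% and 25.6%, means of 3). With HGF they were below it at 24H (39.4% and 56.1%) and at 48H (29.7% and 51.8%). PBS-side sites ran the other way, with means of 38.2% against 54.4% expected with EGF at 24H, 9.34% against 25.5% with IFNG and EGF at 24H, and 68.7% against 58.4% with HGF at 24H. At 48H the OSM-side sites were below expectation with EGF (51.5% and 61.5%) and with IFNG and EGF (33.7% and 40.5%). With TGFB and EGF they were above it at 24H (32.7% and 25.9%) and at 48H (30.8% and 13.5%). These TGFB means covered very unlike libraries. The shares were 87.3%, 6.82% and 3.95% at 24H, in libraries of 105796, 7014 and 5306 peaks. At 48H they were 23.4%, 2.51% and 66.5%, in libraries of 21947, 3756 and 54996 peaks. Each TGFB library lay above its own expectation, by 2.29 to 13.5 percentage points at 24H and 1.13 to 34.3 at 48H. IFNG replicate C at 48H listed 6156 peaks and gave 1.44%. No test was made between ligands.

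**Figure D2:**
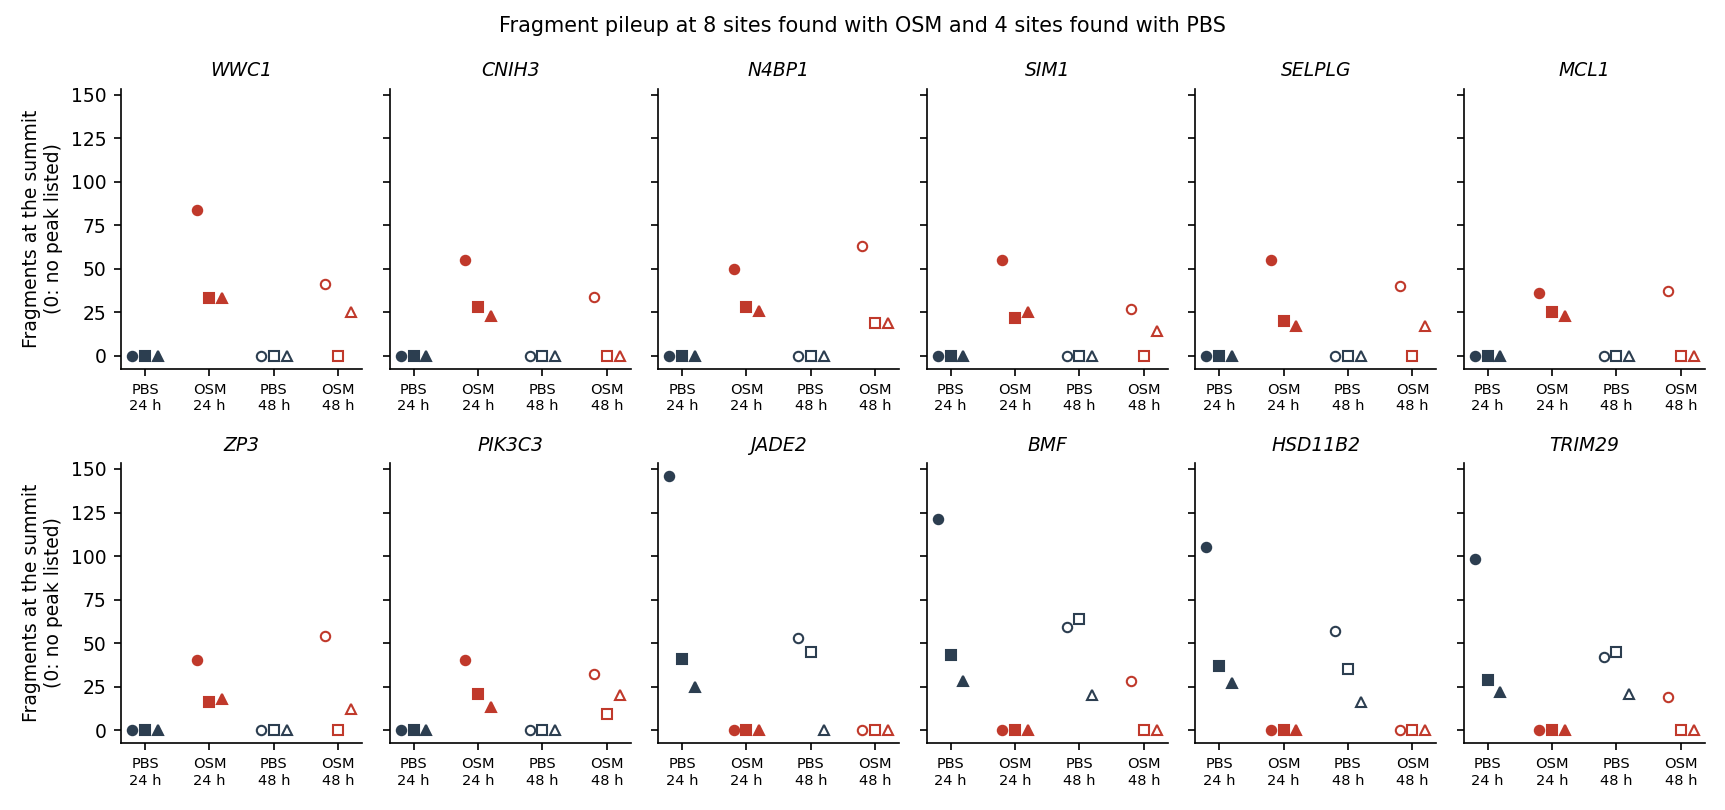
Fragments at the tallest summit of the site in each PBS and OSM library at 24H (filled) and 48H (open), with 0 where no peak was listed; circles, squares and triangles are replicates A, B and C, and sites are named by the nearest gene. The first 8 panels are OSM-side sites absent from CTRL, which hold 13 to 84 fragments with OSM at 24H. They are the tallest after leaving out chromosome 8 and the NUPR2 site, the tallest of all, which had peaks in 2 PBS libraries at 48H. The last 4 are PBS-side sites, which hold 22 to 146 fragments with PBS at 24H, and the PCBD2 site was left out of them.

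The 56 OSM-side sites without a CTRL peak were described singly because they were listed neither at 0H nor with PBS. Of these, 47 had a peak in at least 1 OSM library at 48H and 8 in at least 1 PBS library at 48H. The mean share per library was 38.7% with OSM at 48H (11.7% expected) and 6.55% with PBS at 48H (4.66% expected). At 14 of the 56 no library outside the OSM groups had a peak. That count is given without its share among all kept sites. The following genes were chosen after their values were seen, in order of height. The site in an intron of WWC1, which encodes the Hippo pathway protein KIBRA, held 84, 33 and 33 fragments in OSM replicates A, B and C at 24H and 41 and 25 in replicates A and C at 48H. The intronic site in N4BP1, a gene for a regulator of innate immune signaling, held 50, 28 and 26 fragments at 24H and 63, 19 and 19 at 48H. Both sites lacked a peak in every PBS and CTRL library. The SIM1 site held 55, 22 and 25 and the SELPLG site 55, 20 and 17 at 24H. Within the annotated MCL1 gene, 7.50 kb from its start, a site held 36, 25 and 23 fragments at 24H. MCL1 is an anti-apoptotic BCL2 family member and a known STAT3 target. The tallest of the 56, intergenic near NUPR2 at chr7:56374421-56374681, held 97, 97 and 65 fragments and also had peaks in 2 PBS libraries at 48H. Other ligands gave peaks at these named sites too. SIM1 had one in 3, SELPLG in 2, N4BP1 in 1 and MCL1 in 1 of the 3 libraries of IFNG with EGF at 24H. At 48H SIM1 and SELPLG each had one in 2 libraries of IFNG with EGF. WWC1, SIM1, SELPLG and N4BP1 each had one in 1 library of TGFB with EGF at 24H. The NUPR2 site had one at 24H in 3 libraries of IFNG with EGF, 3 of TGFB with EGF, 2 of HGF and 1 of EGF.

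STAT words were more frequent at these 56 sites than at the other OSM-side sites. Within 100 bp of the summit, on either strand, TTCNNNGAA lay at 23 of 56 (41.1%), at 12.1% of the 795 OSM-side sites found in all CTRL libraries, at 7.61% of PBS-side sites and at 7.02% of all kept sites. The word was also frequent at other sites absent from CTRL. It lay at 3 of the 9 such PBS-side sites (33.3%) and at 22.9% of all 1951 such kept sites, many of them more than 1 Mb from any protein-coding start. Among sites within 1 Mb of a start, the share was 17 of 46 (37.0%) for OSM-side sites and 12.5% of 1432 for all kept sites absent from CTRL. With the word searched within 50 bp of the summit the shares were 28.3% and 6.35%. These are shares of sites chosen on the 24H values, given without a test.

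The 23 sites with the STAT word were also found in part with IFNG, whose receptor also signals through JAK kinases. IFNG with EGF gave a peak at 21.7% to 43.5% of the 23 in its 3 libraries at 24H (mean 31.9%, 5.74% expected). EGF alone at 24H gave 0% to 4.35% in its 4 libraries (mean 3.26%, 12.7% expected). OSM at 48H gave 8.70% to 73.9% (mean 40.6%, 11.3% expected), and PBS at 48H gave 4.35% to 8.70% (mean 5.80%, 4.43% expected). Of the 23, 11 had a peak in at least 1 IFNG library at 24H, 9 in at least 1 TGFB library at 24H and 3 in at least 1 EGF library at 24H. Over all 56 sites the mean with IFNG and EGF at 24H was 24.4% (6.00% expected). The 963 OSM-side sites without the word were above expectation as well, at 45.9% (26.02% expected). At 6 of the 23, no library outside the OSM groups had a peak, a count given without its share among all kept sites.

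The 795 OSM-side sites found in all CTRL libraries held STAT words at 12.1%, against 7.78% of kept sites outside promoters and 7.61% of PBS-side sites. Other words were compared as well. The AP-1 word TGANTCA lay at 53.1% of the 795, against 39.4% of all kept sites, 46.4% of those outside promoters and 23.9% of PBS-side sites. RUNX words (TGTGGTT) lay at 12.7% of the 795 and at 10.7% of the 56 sites absent from CTRL. They lay at 6.19% of all kept sites, 7.10% of those outside promoters and 6.57% of PBS-side sites. TEAD words (ACATTCC) lay at 8.55% of the 795, against 4.44%, 5.08% and 3.81% in the same order. KLF/SP words (GGGCGGGG), common in promoters, lay at 0.629% of the 795, 2.08% of PBS-side sites, 6.93% of all kept sites and 2.32% of those outside promoters. PBS-side sites held FOX words (TGTTTAC) at 7.96%, against 3.32% of OSM-side sites, 3.62% of all kept sites and 4.08% of those outside promoters. All words were searched on both strands within 100 bp of the summit, and a match describes letters, not binding.

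**Figure D3:**
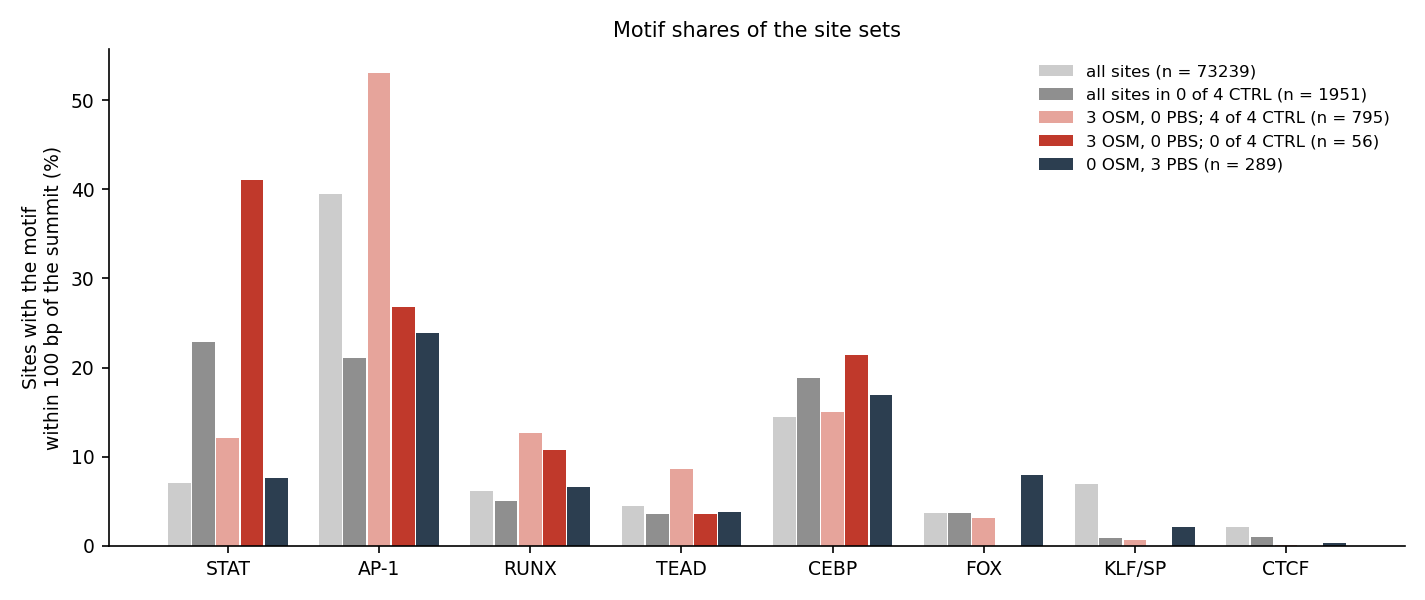
Percent of sites with each DNA word within 100 bp of the summit, for all kept sites, kept sites absent from CTRL, OSM-side sites found in all or none of the CTRL libraries, and PBS-side sites (bars, with the number of sites in the legend). The STAT bar of the 56 OSM-side sites absent from CTRL stands at 41.1%, and the AP-1 bar of the 795 found in all CTRL libraries at 53.1%.

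Motif words were then followed over all 73239 kept sites, library by library, rather than over chosen sites. The motif deviation is the number of sites with the word and a peak, over the number expected from the library's rates, minus 1, in percent. For RUNX it was 1.67, 12.5 and 7.58 in OSM replicates A, B and C and -3.30, -6.10 and -12.2 in PBS, so every OSM library lay above every PBS library (difference of means 14.4). For AP-1 it was 1.97, 5.78 and 5.13 with OSM and -0.34, -3.72 and -11.6 with PBS (difference 9.51). TEAD, a DNA-binding partner of the Hippo effectors YAP and TAZ, had -0.40, 3.33 and 3.51 with OSM and -3.28, -7.39 and -13.1 with PBS (difference 10.1). For these 3 words the exact permutation p was 0.1, the smallest possible, and 0.213 after adjustment over the 17 words, so no word passed the correction.

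SMAD words (173 sites) and NF-kB words were likewise higher in all OSM libraries, by 9.21 and 6.39, and CEBP, FOX and p53 family words (233 sites for the last) were lower in all OSM libraries, by -2.75, -5.62 and -11.3 (exact permutation p = 0.1 each). STAT words reached -4.67, 14.8 and 20.7 with OSM and -8.47, 4.04 and 3.58 with PBS. The groups overlapped (difference 10.6, exact permutation p = 0.3). At 48H the OSM libraries lay above all PBS libraries for RUNX (difference 22.7), AP-1 (13.2), TEAD (14.7) and SMAD (27.9), and below them for p53 family (-15.9), KLF/SP (-19.9), CREB/ATF (-16.7) and ETS words (-14.6). For CEBP the order turned at 48H, with OSM above PBS by 6.54. NF-kB and FOX words overlapped at 48H.

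**Figure D4:**
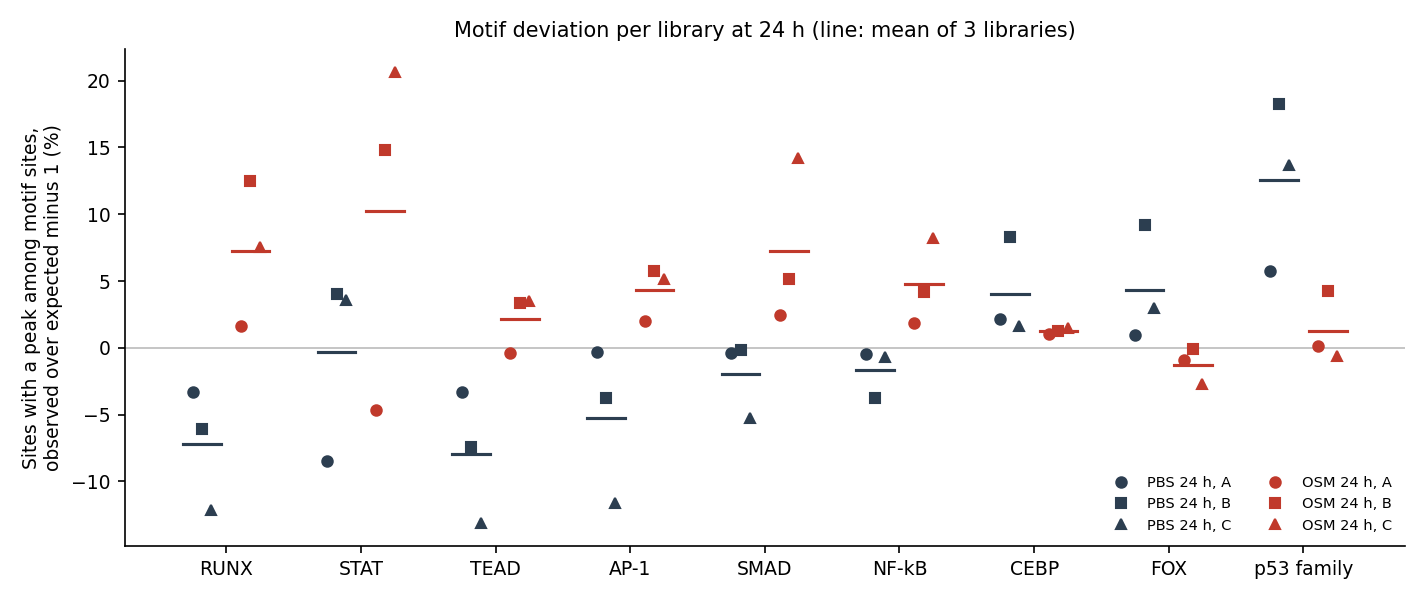
Motif deviation in percent (sites with the word and a peak over the number expected, minus 1) in the 3 PBS (dark) and 3 OSM (red) libraries at 24H, with circles, squares and triangles for replicates A, B and C and a line at the mean. RUNX, TEAD, AP-1, SMAD and NF-kB points of OSM all lie above those of PBS, CEBP, FOX and p53 family points all lie below, and STAT points overlap.

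Genes of the OSM pathway and its known targets were examined by the sites within 50 kb of their transcription starts, on lists chosen with earlier results of these data known. No site of any list was called gained or lost. Near the 17 receptor and JAK-STAT genes, 1 of 126 sites was OSM-side (0.794%) and none was PBS-side. It lay in an intron of JAK1, a kinase bound to gp130, and held 35, 19 and 13 fragments with OSM. Near the 24 STAT3 feedback and early target genes, such as SOCS3, 1 of 182 sites was OSM-side (0.549%), the MCL1 site above. Near 24 acute-phase and secreted targets it was 2 of 99 (2.02%), within 50 kb of CXCL8, a neutrophil chemokine, and of SERPINA1, which encodes alpha-1-antitrypsin. Near 18 epithelial antimicrobial and keratinocyte genes it was 2 of 109 (1.83%), within 50 kb of DEFB4A, a beta-defensin, and of TGM1, a cornified envelope transglutaminase. The share of OSM-side sites among all kept sites was 1.52%, so the shares near these lists were on both sides of the background.

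The EGF and AP-1 response list had the highest share, with 4 of 140 sites OSM-side (2.86%, against 1.52% of all kept sites). This difference rests on few sites and was not tested. The 4 sites lay near 3 of the 19 genes of the list, HBEGF and AREG, both ligands of the EGF receptor, and DUSP6, an ERK phosphatase. The HBEGF site, 1.81 kb upstream of the start, held 71, 37 and 20 fragments with OSM at 24H and 32 and 19 in replicates A and C at 48H. It had no peak in any PBS library at either time and had one in 2 of 4 CTRL libraries. The AREG site held 32, 18 and 15 fragments, and the DUSP6 sites 35, 29 and 17 and 16, 16 and 10. Near 22 migration, protease and mesenchymal genes, 3 of 143 sites were OSM-side (2.098%, against the same 1.52%). The tallest, 14.97 kb from the start of MMP14, a membrane-bound collagenase, held 87, 42 and 32 fragments. The site shared by the MMP1 and MMP10 windows held 22, 17 and 9. The one in PLAUR, the urokinase receptor gene, 0.1 kb from its start, held 31, 15 and 19.

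Basal mammary markers had 2 of 126 OSM-side sites (1.59%, against 1.52% of all kept sites) and 1 PBS-side site (0.794%, against 0.395%). Both OSM-side sites lay within 50 kb of LAMB3, a chain of laminin-332. That PBS-side site lay 0.338 kb from the start of TRIM29 and held 98, 29 and 22 fragments with PBS at 24H and 42, 45 and 21 at 48H. With OSM it was listed in 1 library, with 19 fragments, at 48H. TRIM29 still had a peak within 1000 bp of a transcription start in all 3 OSM libraries at 24H. Near 20 interferon response genes there was no OSM-side site among 91 and 1 PBS-side site (1.10%, against 0.395% of all kept sites), in an intron of GBP5, an interferon-induced GTPase gene. Luminal markers (43 sites) and leukocyte, endothelial and fibroblast markers (54 sites) had neither. The median adjusted difference was between -0.05 and -0.01 for every list and -0.04 for all kept sites.

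The tallest sites of each kind, named after their values were seen, were led by other genes. Among OSM-side sites a TENM2 intron held 133, 61 and 57 fragments with OSM at 24H and 94 and 35 in replicates A and C at 48H. The site at ITGB2, the leukocyte integrin beta chain gene, lay 0.064 kb from its start and held 104, 43 and 42. That at S100A2, a calcium-binding protein gene of basal epithelium, lay 0.063 kb from its start and held 87, 61 and 22. All 3 had a peak in every CTRL library. Intergenic sites near DDX59 (115, 57 and 38 fragments) and SCYGR1 (103, 48 and 43) were found in all 3 OSM and no PBS library at 48H.

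Among PBS-side sites, the BMF site above held 59, 64 and 20 fragments with PBS at 48H, and 28 in OSM replicate A. The JADE2 site held 146, 41 and 25, and an ATP6V0D1 intron, nearest to HSD11B2, held 105, 37 and 27. The TXNIP site, 1.88 kb upstream of a gene for a thioredoxin-binding protein, held 67, 29 and 19. These sites had a peak in all 4 CTRL libraries, and at 48H in 2 or 3 PBS libraries. The tallest, in PCBD2 with 308, 148 and 171 fragments, was found in no 48H library of either group. It was the only OSM-side or PBS-side site to share 25-base words with the mitochondrial genome (36.8% of its words), so its reads cannot be assigned to the nucleus with certainty.

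Peak height was compared at the 19612 sites with a peak in all 6 libraries, as log2 fold enrichment over the local background, quantile normalised. limma called 33 taller sites (0.168%) and 11 lower sites (0.0561%) with OSM at adjusted p below 0.05, and 2203 sites passed 0.05 before adjustment. With a replicate block, since same-letter libraries deviated together in this measure, it called 178 taller and 72 lower. The calls hung on single libraries: without OSM replicate B, OSM replicate C or PBS replicate C it called none, without PBS replicate B 1 and 0, without OSM replicate A 15 and 11, and without PBS replicate A 105 and 21. Called sites were 1.87 to 2.81 times as high with OSM, or 0.425 to 0.503 times.

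The largest change was in an intron of PTPN14, a tyrosine phosphatase gene, at chr1:214427680-214428237. Its normalised fold enrichment was 13.3, 14.7 and 14.3 in OSM replicates A, B and C and 4.74, 6.54 and 4.03 in PBS (log2 difference 1.49 ± 0.21, SE, limma adjusted p = 0.0184). The next 5 taller sites lay in introns of SUSD1, TUFT1, MRPL33 and TEKT5 and in intergenic DNA near TMEM229A, with log2 differences of 1.06 to 1.28 (limma adjusted p = 0.0378 to 0.0432). Further taller sites, chosen after their values were seen, included intergenic ones near ERRFI1, a feedback inhibitor of the EGF receptor (log2 difference 1.00 ± 0.19, SE, limma adjusted p = 0.0448), and TGFBR2, a TGFB receptor gene (1.06 ± 0.21, SE, limma adjusted p = 0.0472). Near ADGRG6, an adhesion receptor gene, the taller site lay 0.87 kb from the start, the only one of the 33 within 1000 bp of one.

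The lowest p among lower sites, and the only called site near a listed gene, was within the annotated MCL1 gene at chr1:150567888-150570268. Its fold enrichment was 2.90, 3.04 and 2.81 with OSM and 6.41, 6.26 and 8.04 with PBS (log2 difference -1.24 ± 0.19, SE, limma adjusted p = 0.0378). The OSM-side MCL1 site described above lay beside it, at chr1:150571984-150572356. Lower sites in introns of LRBA and PHACTR3 and near DPT, ENO1 and BAALC followed, with log2 differences of -1.19 to -1.08 (limma adjusted p = 0.0378 to 0.0439). Across the lists, the median log2 height difference was between -0.08 and 0.05, and over all sites it was -0.01.

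**Figure D5:**
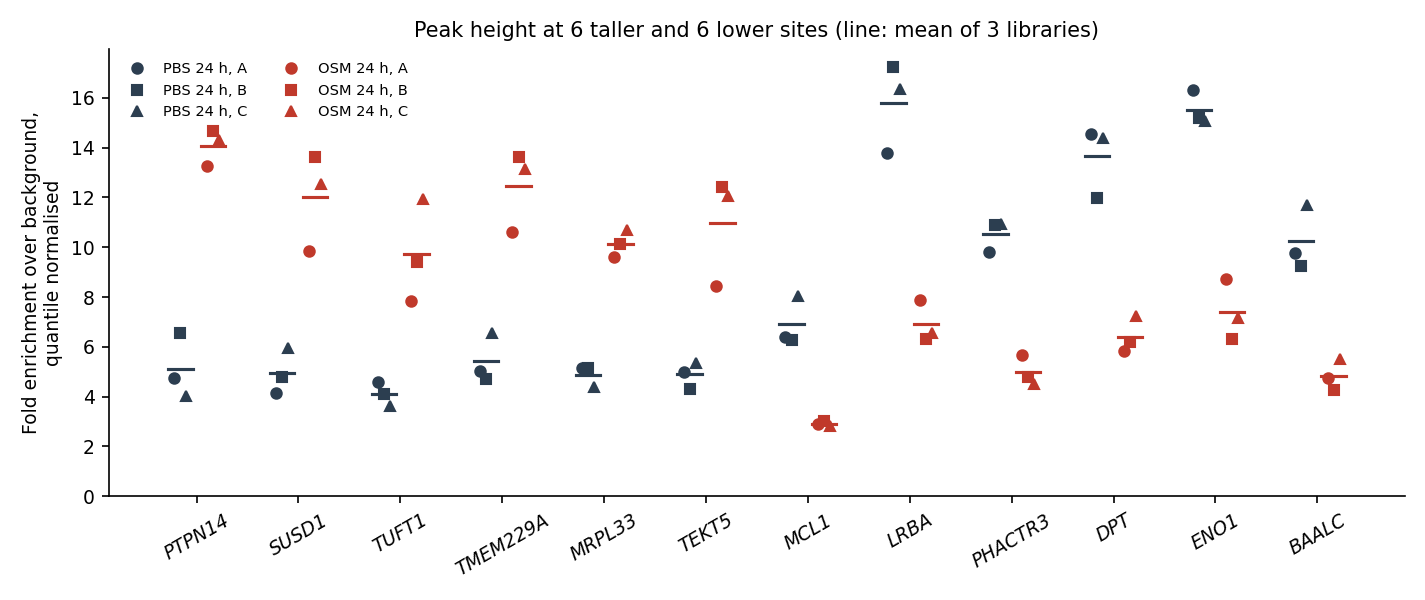
Quantile-normalised fold enrichment over the local background (linear axis) at the 6 taller and 6 lower sites of lowest p, in the 3 PBS (dark) and 3 OSM (red) libraries at 24H, with circles, squares and triangles for replicates A, B and C and a line at the mean. At PTPN14 the OSM libraries lie at 13.3 to 14.7 and the PBS libraries at 4.03 to 6.54, and at MCL1 the OSM libraries lie at 2.81 to 3.04 and the PBS libraries at 6.26 to 8.04.

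At 48H, in libraries that took no part in the height calls, the taller sites were again higher with OSM. A peak was listed in at least 1 OSM and 1 PBS library at 27 of the 33, and all 27 had a higher mean log2 fold enrichment with OSM, centred on each library's median (median difference 1.16). The 11 lower sites all had a lower one (median -0.43). Over the 19292 sites with such a value, 50.9% were higher with OSM and the median was 0.01. At PTPN14 a peak was listed in 3 OSM and 0 PBS libraries at 48H. AP-1 words lay within 100 bp of the summit at 54.5% of the taller sites, 36.4% of the lower sites and 32.9% of all sites with a peak in all 6 libraries, and GRHL words (AACCNGTT) at 27.3% of the lower sites, 3.03% of the taller and 1.23% of all. STAT words lay at 9.09% of the taller sites, none of the 11 lower sites and 5.95% of all. Promoters made up 38.5% of the sites with a peak in all 6 libraries, but only 1 taller and no lower site lay there. Among kept sites outside promoters the shares were 46.4% for AP-1, 1.61% for GRHL and 7.78% for STAT words.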

How the data were processed

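ATACseq libraries of MCF10A cells were analysed from the peak lists the authors deposited, 1 per library. Per the labels and the submitters' processing notes, reads were trimmed (Trimmomatic 0.36.5), aligned to hg38 (Bowtie2 2.3.4.1) and peaks called per library with MACS2 2.1.1.20160309.5, with Picard and deepTools 3.1.2 also named. Each deposited list gives peak positions and summit, a score, the fold enrichment over local background (a ratio) and -log10 p and q values. The values the authors deposited are positions (start, end, summit offset), the score, the fold ratio and the −log10 values, and no counts.

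Overlapping peaks of the 6 libraries (1 bp or more) were merged and kept with a peak in at least 2. Fragments at a summit were recovered as whole numbers from fold enrichment and -log10 p (tolerance 0.001), for at least 99.9% of the peaks of each of the 6 libraries. Adjusted detection was tested with limma 3.58.1 (R 4.3.3, 29 residual degrees of freedom, Benjamini-Hochberg over all sites), height with limma on the 6 libraries (4 residual degrees of freedom), and single values per library by exact permutation. Annotation was GENCODE 44 (19962 protein-coding genes). The scripts were tested on simulated data, where the detection test made more false calls than its threshold allows.

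Named sites were the 12 gained and 12 lost with the lowest adjusted p (filled where fewer), called sites within 50 kb of a listed gene, and the 6 taller and 6 lower of lowest p. Others are said in the text to be chosen after their values were seen. Members and lists were chosen with earlier results of these data known. Same-letter libraries correlated by 0.235, 0.0646 and 0.0148 (A, B, C) in adjusted detection, so letters were not taken as pairs there. In height they correlated by 0.452, 0.104 and 0.189, so the block is given beside height, although mainly letter A stood apart. Recovered pileup, as a height, and distinct intervals, as a peak number, were alternatives chosen after seeing the data. A few items that the rule names are not reported here.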

Additional observations from a re-analysis of the deposited data

How the results depend on the processing

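The detection calls depended on the settings. Gained and lost sites, 11 and 31 in the report, numbered 30 and 8 with raw detection, 7 and 9 with classes also split by GC content, 0 and 0 with the 6 libraries alone, with the 24H groups and CTRL, or with peaks of -log10 q of at least 5, 214 and 121 with array weights, 1165 and 1157 with equal numbers of the strongest peaks, 801 and 1232 at adjusted p below 0.05, and 4 and 4 with a replicate block. Lost sites fell to 1 without the other libraries under 30000 peaks and to 5 with a peak required in at least 1 library, and gained sites were 22 with at least 3. Leaving out 1 of the 6 libraries gave 11 to 483 gained and 11 to 720 lost sites, and 0 to 15 sites whose 48H effect differed (4 with raw detection, 0 with the replicate block). Sites in 3 of 3 OSM and 0 of 3 PBS libraries numbered 728 with the stricter q, 2095 with equal numbers of peaks and 1147 to 4826 with 1 library left out, and the reverse 178, 1563 and 308 to 2421. Taller and lower peaks, 33 and 11, numbered 178 and 72 in the paired fit with a replicate block, 283 and 123 on log2 of -log10 p, 81 and 23 with trend and robust settings, 4 and 1 with summit windows, 596 and 259 with recovered pileup (added after seeing the data), and 0 to 105 and 0 to 21 with 1 library left out. Cyclic loess gave 64 taller. The cause was not tested. AP-1, RUNX, TEAD, STAT, SMAD, NF-kB, CEBP, FOX and p53 family deviations kept their sign in all 11 alternatives, while CREB/ATF, ETS and STAT6-like words did not. Sites below the peak threshold carry no value, so depth limits what absence of a peak can show.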
